A study of Mus musculus with 28 samples.

Results

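A set of 10 genes that mark lipid-associated macrophages was followed in the livers of 28 male B6.V-Lepob/JRj mice, and 9 of these genes had a row in the table of counts. They were chosen by symbol, as Trem2, Gpnmb, Cd9, Spp1, Cd63, Fabp5, Lgals3, Itgax, Clec7a and Atp6v0d2, and each symbol was matched to the Ensembl mouse gene identifier (build GRCm38) of a row. Clec7a was not analysed here. The 9 measured genes were among 21935 genes in the table and among the 12580 that were tested. All mice carried the Lepob allele, which removes the hormone leptin and makes mice obese, and all ate the Amylin liver NASH (AMLN) diet, which is high in fat (trans fat included), fructose and cholesterol and gives this strain nonalcoholic steatohepatitis. The mice were obtained at 5 weeks of age, ate the diet for 14 weeks before treatment and were then dosed by mouth once a day for 2 weeks, still on the diet. Of the 28 mice, 10 received vehicle (carboxymethylcellulose at 0.5%), 9 received obeticholic acid (OCA) at 30 mg/kg and 9 received INT-787 at 30 mg/kg. Both drugs are agonists of the bile acid receptor FXR, and INT-787 is OCA with an added hydroxyl group. No lean or chow-fed mice were among the samples, so every level below is a level in diseased liver.

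Lipid-associated macrophages are macrophages that take up lipid, dying cells and debris in obese adipose tissue, fatty liver and atherosclerotic plaque. The surface receptor TREM2 binds lipids and lipoproteins and signals through the adaptor TYROBP and the kinase SYK, and the program that comes with it includes lysosomal proteins, lipid chaperones and secreted matrix proteins. In steatohepatitis such cells gather near fat-laden hepatocytes and in scarred areas, beside the resident macrophages of the liver, the Kupffer cells. The genes are not all particular to macrophages: Spp1 is also made by bile duct cells and stellate cells, Cd63 and Cd9 by many cells, and Lgals3 by several cell types of injured liver.

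In bulk liver RNA, fewer cells of a type and less RNA per cell cannot be told apart. Levels are given as CPM, that is counts per 1000000 counts after adjustment of the library sizes, and each mouse is 1 sample. Total counts per mouse lay between 9313260 and 22421506 in 27 mice, whereas vehicle replicate 6 had 1009593. In that mouse Atp6v0d2 rested on 8 counts, Fabp5 on 13 and Trem2 on 15. In vehicle replicate 5, 114 genes were over 5 times higher than in all other mice, and 113 of these overlap a gene on the opposite strand, whereas the other 27 mice had between 0 and 2 such genes. Among the 9 genes, Cd9 exons overlap an annotated gene on the opposite strand (Gm26728, over 218 bases) and Spp1 exons overlap another gene on their own strand (Gm42793, over 309 bases). Processed copies of Cd9, Cd63 and Fabp5 are annotated in the mouse genome (Cd9-ps, Cd63-ps and Fabp5l2), and how reads shared with these copies were counted is not given in the sources used here.

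The promoters of the genes are shown first, because 7 of the 9 genes were called lower with INT-787 and because sites of a few regulators of macrophage genes can be read in them. The windows ran from 250 bases before to 50 bases after each start site in RefSeq (GRCm38.p6), and windows were found for 7 genes. Fabp5 and Atp6v0d2 had none. The motifs, read on both strands, were CACGTG and TCATGTG (bound by MITF and TFE proteins, which drive lysosomal genes), TGAGTCA (bound by AP-1), GAGGAAGT (bound by PU.1, the master regulator of macrophages) and an inverted repeat of AGGTCA spaced by 1 base (bound by FXR). The stretches before 4 start sites are printed 5′ to 3′, with any motif in capitals: Spp1 and Itgax because they held one, Trem2 because it names the program and Lgals3 because it fell most.
Spp1, chr5:104434861-104435110, plus strand: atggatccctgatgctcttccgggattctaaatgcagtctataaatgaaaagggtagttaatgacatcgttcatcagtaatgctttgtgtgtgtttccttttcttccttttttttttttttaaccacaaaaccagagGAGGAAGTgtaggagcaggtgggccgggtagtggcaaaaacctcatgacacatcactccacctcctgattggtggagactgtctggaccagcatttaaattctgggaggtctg
Itgax, chr7:128129300-128129549, plus strand: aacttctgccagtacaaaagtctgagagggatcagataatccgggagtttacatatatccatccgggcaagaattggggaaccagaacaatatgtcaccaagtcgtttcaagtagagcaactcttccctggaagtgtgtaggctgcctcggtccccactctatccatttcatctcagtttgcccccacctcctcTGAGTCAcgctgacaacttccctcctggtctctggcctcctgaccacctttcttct
Trem2, chr17:48346151-48346400, plus strand: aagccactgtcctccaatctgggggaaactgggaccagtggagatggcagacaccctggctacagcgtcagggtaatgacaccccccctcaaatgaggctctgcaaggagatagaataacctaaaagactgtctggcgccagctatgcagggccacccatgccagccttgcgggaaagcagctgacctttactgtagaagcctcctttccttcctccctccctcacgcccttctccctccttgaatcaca
Lgals3, chr14:47373610-47373859, plus strand: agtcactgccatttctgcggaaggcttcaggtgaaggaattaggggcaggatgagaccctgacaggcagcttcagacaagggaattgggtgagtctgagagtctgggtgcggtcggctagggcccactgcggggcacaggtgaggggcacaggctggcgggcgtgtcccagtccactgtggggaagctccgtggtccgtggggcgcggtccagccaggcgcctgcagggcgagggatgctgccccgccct
The PU.1 motif of Spp1 began 113 bases before the start site, and the AP-1 motif of Itgax 56 bases before it. Gpnmb held an AP-1 motif from base 9 after its RefSeq start, within this stretch of chr6:49036517-49036541 (plus strand), printed because the motif lies 14 bases before the start of the gene in GENCODE.
Gpnmb: aggggcaagTGACTCAtgagcacga
Of the 8 windows of these genes (Spp1 has 2), 2 held TGAGTCA and 1 held GAGGAAGT, whereas 5.2% and 3.2% of all 32851 windows did. None of the 8 held CACGTG (7.15% of all windows), TCATGTG (3.77%) or the inverted repeat (0.00913%). A match describes letters in the window and not a bound site.

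Per length of transcript, the levels in vehicle livers spanned a wide range. Spp1 had the highest level, 393 ± 65.3 CPM per kilobase of its principal transcript (SD, n = 10), and Atp6v0d2 had the lowest, 4.34 ± 1.12. Between them came Cd63 (149 ± 40.9), Cd9 (81.4 ± 14.1), Lgals3 (73.2 ± 19.1), Gpnmb (35.4 ± 7.77), Trem2 (15.2 ± 3.17), Fabp5 (11.6 ± 3.85) and Itgax (5.82 ± 1.09), all in CPM per kilobase. Each gene exceeded the next in this order in all 10 vehicle mice, except Cd9 over Lgals3 and Itgax over Atp6v0d2 (9 of 10 mice each) and Trem2 over Fabp5 (8 of 10 mice). Itgax exceeded Atp6v0d2 in 5 of 9 mice with INT-787 and in 5 of 9 with OCA, and Cd63 exceeded Cd9 in 6 of 9 mice with INT-787, so these neighbours did not separate there. Every other pair of neighbours kept its order in at least 8 of 9 mice of each drug group. The order depended on the length used. Per kilobase of all annotated exons, Spp1 was still highest in vehicle mice, but Lgals3 (55.9) came before Cd9 (48.9) and Cd63 (44.9). By that length Fabp5 (3.20) and Trem2 (3.35) lay below Atp6v0d2 (4.06).

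**Figure D1:**
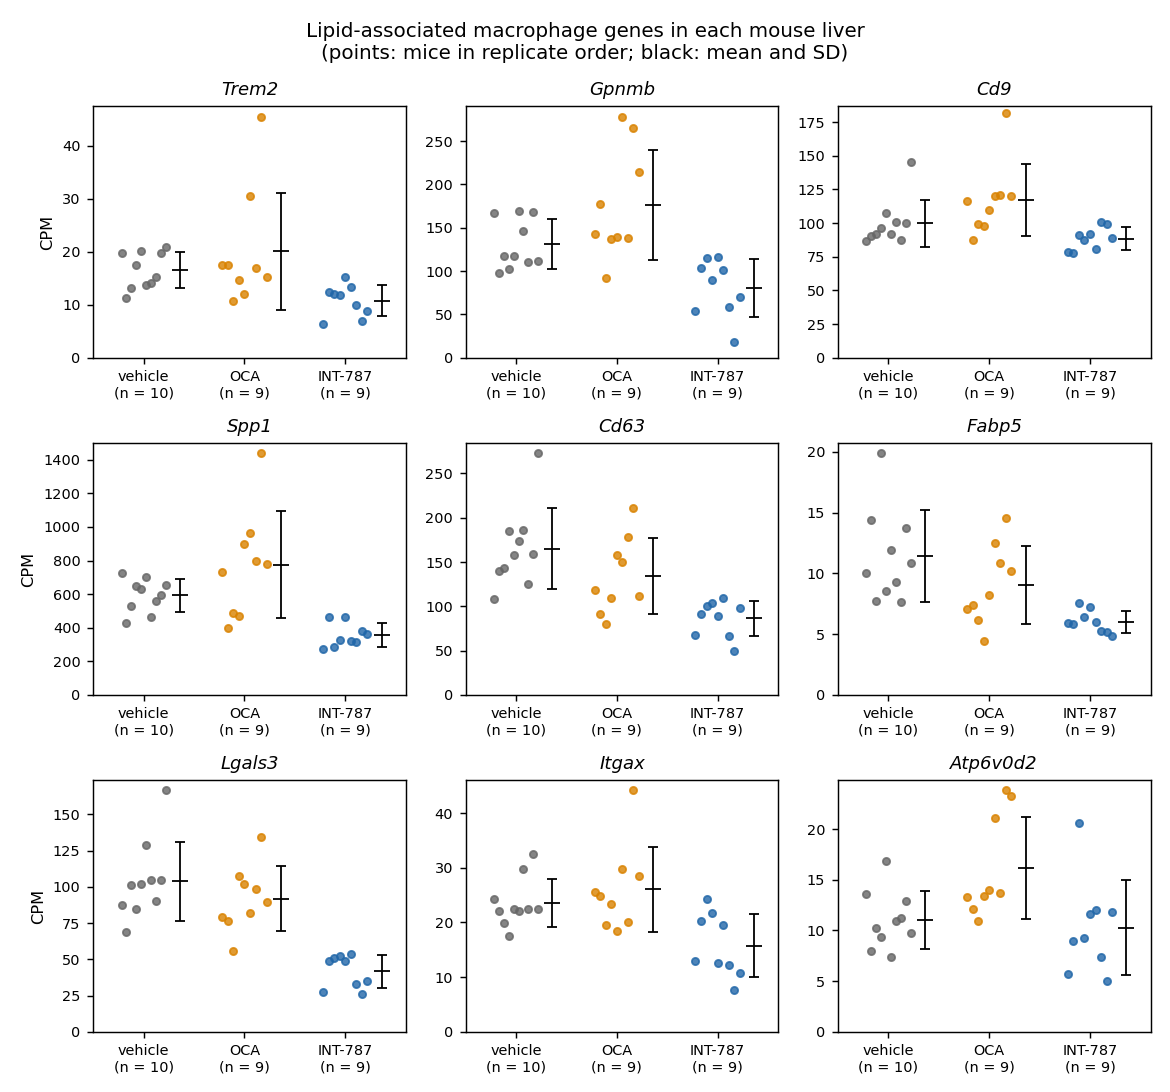
CPM of the 9 measured genes in each mouse, with 1 panel per gene, a linear vertical axis from 0 and mice in replicate order within vehicle (n = 10), OCA (n = 9) and INT-787 (n = 9); black marks give the mean and the SD. Lgals3 and Fabp5 with INT-787 lay below every vehicle mouse, and the highest OCA point of most panels is replicate 8.

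Compared with vehicle, INT-787 lowered 7 of the 9 measured genes: Trem2, Gpnmb, Spp1, Cd63, Fabp5, Lgals3 and Itgax. Cd9 and Atp6v0d2 did not pass the test, and no gene rose. Of all 12580 genes tested, 9.48% were called lower and 10.2% higher in this comparison. The median log2 fold change of the 9 genes was -0.69, whereas that of all tested genes was -0.001. With OCA none of the 9 genes passed the test against the same vehicle mice, where 2.45% of all genes were called lower and 4.15% higher. With OCA, 3 of the 9 genes had an unadjusted p under 0.05 (Cd9, Spp1 and Atp6v0d2, all with higher means), and DESeq2 and limma-voom also called 0 of the 9. Their log2 fold changes of 0.23, 0.38 and 0.53 became 0.10, 0.14 and 0.36 without OCA replicates 6 and 8 together. The median log2 fold change with OCA was 0.23, against 0.02 for all tested genes. Between the drugs at the same dose and time, INT-787 gave lower levels than OCA for 7 of the 9 genes (Trem2, Gpnmb, Cd9, Spp1, Cd63, Lgals3 and Itgax), where 3.19% of all genes were called lower and 2.19% higher. This was the only pair of compounds compared, and a gene was called at an adjusted p of at most 0.05 in the quasi-likelihood test of edgeR, adjusted by Benjamini-Hochberg over the 12580 genes.

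**Figure D2:**
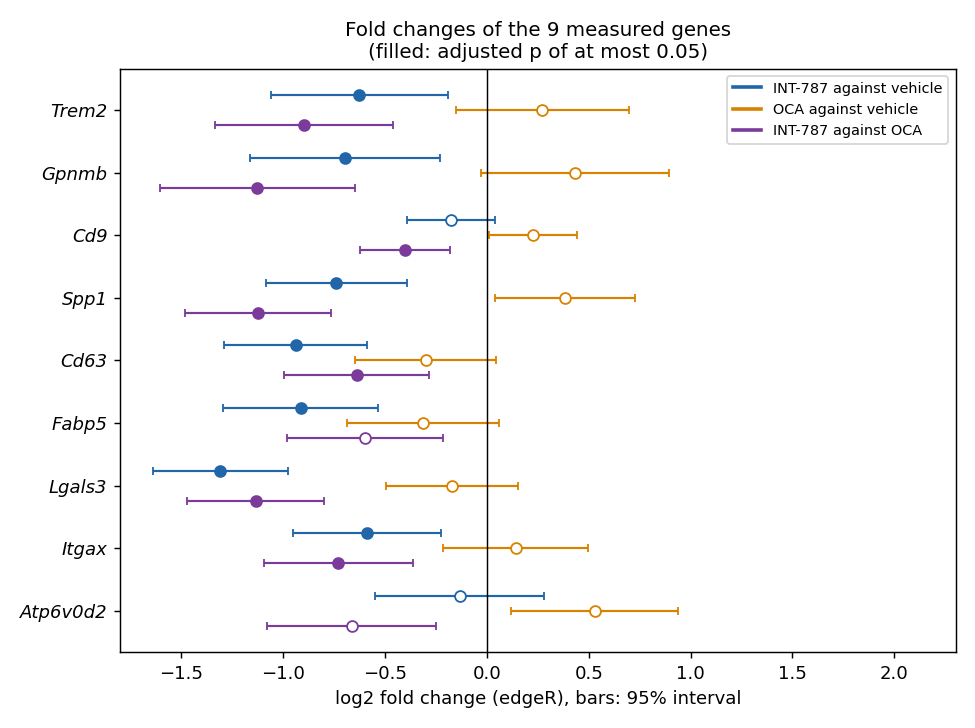
Log2 fold change of each of the 9 genes in the 3 comparisons, with 95% intervals from edgeR; filled points passed an adjusted p of 0.05 and open points did not. All estimates for INT-787 lie left of 0, whether against vehicle or OCA, whereas those for OCA against vehicle lie on both sides and are all open.

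Trem2 (ENSMUSG00000023992, chr17:48346401-48354147) encodes the receptor that names the program. In vehicle mice its lowest, median and highest levels were 11.4, 16.3 and 20.9 CPM. With INT-787 they were 6.36, 11.9 and 15.2 CPM, and with OCA 10.6, 17.01 and 45.5 CPM. Of the 9 INT-787 mice, 4 lay below the lowest vehicle mouse and the groups overlapped, whereas the OCA group held both a mouse below all vehicle mice and 2 far above them. INT-787 lowered Trem2 by 35.2% compared with vehicle (log2 fold change -0.63 ± 0.21 SE, adjusted p = 0.0353) whereas the change with OCA did not pass the test (0.27 ± 0.21, adjusted p = 0.546, 95% interval -0.15 to 0.70). Trem2 was also lower with INT-787 than with OCA (-0.90 ± 0.21, adjusted p = 0.0104). The call against vehicle was lost when any of 8 single mice was left out (vehicle replicates 1, 5, 9 and 10 and INT-787 replicates 1, 7, 8 and 9). In those 8 fits the adjusted p was up to 0.0691 and log2 fold changes were -0.61 to -0.56. The call was also lost with the replicate number as a block (-0.60, adjusted p = 0.0660) and without vehicle replicates 5 and 6 together (-0.60, adjusted p = 0.0634).

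Itgax (ENSMUSG00000030789, chr7:128129547-128150657) encodes CD11c, the alpha chain of complement receptor 4, which is carried by dendritic cells and by macrophages recruited to fatty tissue. Its lowest, median and highest levels were 17.5, 22.5 and 32.5 CPM with vehicle and 7.61, 12.9 and 24.3 CPM with INT-787. With OCA they were 18.5, 24.9 and 44.2 CPM. In the INT-787 group 5 mice lay below every vehicle mouse and the rest lay among them. INT-787 changed Itgax by -0.59 ± 0.18 (log2, SE, adjusted p = 0.0181), and this call held when each mouse was left out in turn. With OCA Itgax did not pass the test (0.14 ± 0.18, adjusted p = 0.754, 95% interval -0.22 to 0.50), and the difference between the drugs was -0.73 ± 0.18 (adjusted p = 0.0132), a call that was lost without OCA replicates 6 and 8 together (-0.54, adjusted p = 0.104).

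Cd9 (ENSMUSG00000030342, chr6:125460266-125494791, minus strand) and Cd63 (ENSMUSG00000025351, chr10:128900989-128912822) encode tetraspanins, membrane proteins that organise receptors at the cell surface (CD9) and in late endosomes, lysosomes and exosomes (CD63). Cd9 had lowest, median and highest levels of 86.8, 94.2 and 146 CPM with vehicle, 77.7, 89.2 and 101 CPM with INT-787 and 87.7, 117 and 182 CPM with OCA. Its INT-787 mice lay close together, and 1 mouse of each other group (vehicle replicate 10 and OCA replicate 8) stood well above the rest. Against vehicle, the change of Cd9 with INT-787 was -0.18 ± 0.11 (log2, SE, adjusted p = 0.263), with a 95% interval of -0.39 to 0.04, and with OCA 0.23 ± 0.11 (adjusted p = 0.242, interval 0.01 to 0.44). Cd9 was lower with INT-787 than with OCA (-0.40 ± 0.11, adjusted p = 0.0236), but not when OCA replicate 8 was left out (-0.30, adjusted p = 0.0701).

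Cd63, unlike Cd9, was called lower with INT-787 than with vehicle, though the difference between the genes was not tested. Its lowest, median and highest levels were 109, 159 and 273 CPM with vehicle, 49.99, 90.97 and 109 CPM with INT-787 and 80.0, 119 and 211 CPM with OCA. Of the INT-787 mice, 8 lay below every vehicle mouse, and the ninth exceeded the lowest vehicle mouse by less than 1 CPM. INT-787 lowered Cd63 by 47.8% (-0.94 ± 0.17, adjusted p = 0.000167), which held without any single mouse. With OCA the change was -0.30 ± 0.17 (adjusted p = 0.364, interval -0.65 to 0.05). The difference between the drugs, -0.64 ± 0.17 (adjusted p = 0.0256), was lost without OCA replicate 8, INT-787 replicate 7 or INT-787 replicate 8 (adjusted p up to 0.0815).

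Secreted proteins are encoded by Spp1 and Lgals3. Spp1 (ENSMUSG00000029304, chr5:104435118-104441050) encodes osteopontin, a matrix protein and cytokine that binds CD44 and integrins and is raised in fibrotic liver. Its lowest, median and highest levels were 428, 611 and 727 CPM with vehicle and 274, 326 and 465 CPM with INT-787. With OCA they were 396, 779 and 1440 CPM. Below every vehicle mouse lay 7 of the 9 INT-787 mice, whereas OCA mice lay both below and above the vehicle range. INT-787 lowered Spp1 by 40.1% compared with vehicle (-0.74 ± 0.17, adjusted p = 0.00207) and also compared with OCA (-1.12 ± 0.18, adjusted p = 0.000134). Both calls held when each mouse was left out. With OCA the change from vehicle was 0.38 ± 0.17 (adjusted p = 0.202, interval 0.04 to 0.73).

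Lgals3 (ENSMUSG00000050335, chr14:47367751-47386160) encodes galectin-3, a lectin that binds galactose-bearing sugars and is used as a stain for inflammatory macrophages in NASH. It fell most of the 9 genes. The lowest, median and highest levels were 68.8, 102 and 167 CPM with vehicle, 26.1, 49.0 and 53.9 CPM with INT-787 and 55.4, 89.6 and 134 CPM with OCA. All 9 INT-787 mice lay below every vehicle mouse and below every OCA mouse. INT-787 lowered Lgals3 by 59.6% compared with vehicle (-1.31 ± 0.16, adjusted p = 3.8e-07) and by 54.5% compared with OCA (-1.13 ± 0.16, adjusted p = 4.6e-05). With OCA the change was -0.17 ± 0.16 (adjusted p = 0.635, interval -0.50 to 0.15).

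Proteins of lipid handling and of the lysosome are encoded by Gpnmb, Fabp5 and Atp6v0d2. Gpnmb (ENSMUSG00000029816, chr6:49036546-49070929) encodes a membrane glycoprotein of lysosomes and melanosomes that is induced under lysosomal stress. Its lowest, median and highest levels were 97.7, 118 and 169 CPM with vehicle, 17.9, 89.4 and 116 CPM with INT-787 and 91.6, 143 and 277 CPM with OCA. It spread widely with INT-787, where replicate 8 had 17.9 CPM and the next mouse 53.6 CPM. INT-787 lowered Gpnmb by 38.2% compared with vehicle (-0.69 ± 0.23, adjusted p = 0.0299), a call that was lost without vehicle replicate 1 or 9 or INT-787 replicate 1 or 7, or without vehicle replicates 5 and 6 together (adjusted p up to 0.0577). With OCA the change was 0.43 ± 0.23 (adjusted p = 0.312, interval -0.03 to 0.89). The difference between the drugs was -1.13 ± 0.23 (adjusted p = 0.00329) and held without any single mouse.

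Fabp5 (ENSMUSG00000027533, chr3:10012548-10016607) encodes a fatty acid chaperone of macrophages and epithelia, distinct from the liver form FABP1. Its lowest, median and highest levels were 7.61, 10.4 and 19.9 CPM with vehicle and 4.84, 5.95 and 7.53 CPM with INT-787. With OCA they were 4.40, 8.22 and 14.6 CPM. All 9 INT-787 mice lay below the lowest vehicle mouse, though narrowly (7.53 against 7.61 CPM), while 4 of the 9 OCA mice did. INT-787 lowered Fabp5 by 46.9% compared with vehicle (-0.91 ± 0.19, adjusted p = 0.000595). With OCA the change was -0.31 ± 0.18 (adjusted p = 0.384, interval -0.68 to 0.06), and the difference between the drugs did not pass the test (-0.60 ± 0.19, adjusted p = 0.0547, interval -0.98 to -0.22), although DESeq2 called it. Without OCA replicates 6 and 8 together the difference between the drugs was -0.38 (adjusted p = 0.401).

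Atp6v0d2 (ENSMUSG00000028238, chr4:19876841-19922605, minus strand) encodes the form of a subunit of the proton pump V-ATPase that macrophages and osteoclasts use. Its lowest, median and highest levels were 7.36, 10.6 and 16.9 CPM with vehicle, 5.03, 9.25 and 20.6 CPM with INT-787 and 10.98, 13.7 and 23.9 CPM with OCA. The INT-787 mice spread over and beyond the vehicle range. The change with INT-787 was -0.13 ± 0.20 (adjusted p = 0.708, interval -0.55 to 0.28), and that with OCA 0.53 ± 0.20 (adjusted p = 0.120, interval 0.12 to 0.94). The difference between the drugs, -0.66 ± 0.20, had an adjusted p of 0.0504 and became a call with DESeq2, limma-voom or upper-quartile scaling. Without OCA replicates 6 and 8 together it was -0.49 (adjusted p = 0.297).

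The coefficient of variation was highest in the OCA group for 5 of the 9 genes, at up to 55.2% for Trem2. It was highest in the INT-787 group for the other 4, at up to 45.5% for Atp6v0d2. Among OCA mice 2 stood out. OCA replicate 8 had the highest level of its group for 8 of the 9 genes and the highest of all 28 mice for 5. OCA replicate 6 was the next highest for Trem2 (30.5 CPM) and Spp1 (962 CPM) and the highest for Gpnmb (277 CPM). INT-787 replicate 8 was the lowest of all 28 mice for 5 genes. Without OCA replicates 6 and 8 together, an alternative chosen after seeing the data, INT-787 gave lower levels than OCA for 3 of the 9 genes (Gpnmb, Spp1 and Lgals3), in place of 7, and without OCA replicate 8 alone 5 were. Without both mice the difference between the drugs was -0.47 for Trem2 (log2, adjusted p = 0.135), -0.28 for Cd9 (adjusted p = 0.149), -0.48 for Cd63 (adjusted p = 0.172), -0.88 for Gpnmb (adjusted p = 0.0328), -1.06 for Lgals3 (adjusted p = 0.000259) and -0.87 for Spp1 (adjusted p = 0.000679), and the change of Trem2 with OCA compared with vehicle turned from 0.27 to -0.16. The 7 calls of INT-787 against vehicle did not rest on these OCA mice, since 7 genes were called without them.

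**Figure D3:**
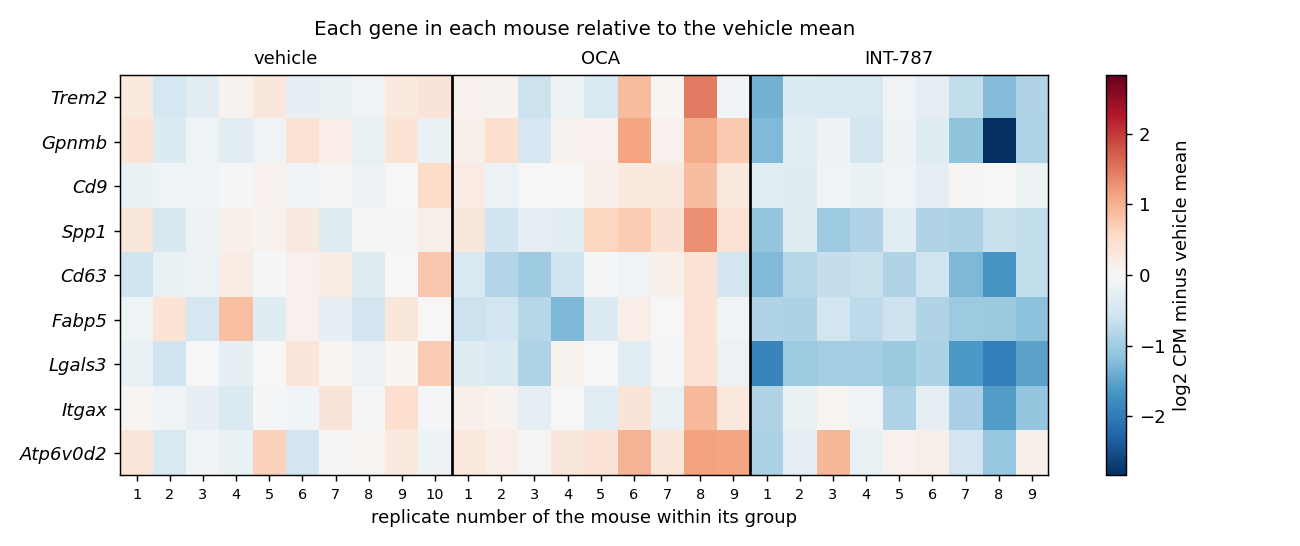
Log2 CPM of each gene in each mouse minus the vehicle mean, with the 28 mice in columns by group and replicate number; red is above and blue below the vehicle mean. OCA replicate 8 is red in every row, and INT-787 replicates 1, 7 and 8 are the bluest columns.

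Marker lists of macrophages and other cells are given beside the 9 genes. Counts from all lists are read against all tested genes, of which 9.48% were called lower and 10.2% higher with INT-787. With OCA these shares were 2.45% and 4.15%, so a short list with no call lies near them. Between the drugs they were 3.19% and 2.19%. Of 10 pan-macrophage markers, 7 fell with INT-787 compared with vehicle, among them Mpeg1 (229 ± 28.6 to 136 CPM, log2 fold change -0.76, adjusted p = 2.99e-05), Cd14 (-0.76), Cd68 (-0.69), Fcgr1 (-0.87) and Csf1r, the receptor for the macrophage growth factor CSF1 (-0.46, adjusted p = 0.0126), whereas Adgre1, which encodes F4/80, gave -0.41 (adjusted p = 0.165). None of the 10 was called with OCA (1 without OCA replicates 6 and 8 together). The summed level of the 10 markers was 624 to 846 CPM with vehicle, 414 to 717 CPM with INT-787 and 490 to 1060 CPM with OCA, the highest again in OCA replicate 8. Of 6 monocyte markers 4 fell with INT-787 (Ccr2 by 1.14, Chil3 by 0.98, Cx3cr1 by 0.95 and Plac8 by 0.72, log2), while Ly6c2 gave -0.35 (adjusted p = 0.485), with a summed level of 34.7 to 80.7 CPM with vehicle and 21.8 to 37.3 CPM with INT-787. OCA mice had 34.6 to 86.2 CPM of these markers.

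Among 10 Kupffer cell markers, 4 fell with INT-787 (Folr2, C1qa, C1qb and C1qc, by 0.51 to 0.66 on the log2 scale). The defining markers Clec4f (-0.30, adjusted p = 0.357) and Vsig4 (-0.17, adjusted p = 0.551) did not pass the test. Other members had higher means with INT-787 without passing the test: Marco, a scavenger receptor, gave 1.74 (adjusted p = 0.0867), Timd4 0.68 (adjusted p = 0.384) and Slc40a1 0.21 (adjusted p = 0.359), all named after their values were seen. Between the drugs, C1qb was lower with INT-787 (-0.52, adjusted p = 0.0285) and Marco higher (2.63, adjusted p = 0.0371), and neither was called without OCA replicate 6 or without OCA replicate 8. The summed Kupffer cell markers were 679 to 969 CPM with vehicle, 462 to 795 CPM with INT-787 and 596 to 1173 CPM with OCA. The highest OCA mouse for these was replicate 2, with replicate 8 at 788 CPM. INT-787 replicate 8, the lowest mouse for 5 of the 9 genes, had 762 CPM of Kupffer cell markers and 514 CPM of pan-macrophage markers, among the 3 highest of its group for each. None of these lists had a marker at 0 in every mouse.

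Spp1, Cd63 and Cd9 are made outside macrophages too, so the markers of those cells are given beside them. Of 12 stellate cell and myofibroblast markers 9 fell with INT-787, with a median log2 fold change of -1.11 (Timp1 -1.71, Tagln -1.11, Lox -1.82 and Col3a1 -1.28), and 7 were lower than with OCA. Lrat, a marker of quiescent stellate cells, gave -0.55 (adjusted p = 0.00404) and Reln 0.02 (adjusted p = 0.972). Their summed level was 1428 to 2646 CPM with vehicle, 523 to 1293 CPM with INT-787 (lowest in replicate 8) and 1348 to 3521 CPM with OCA (highest in replicate 8). Of 7 cholangiocyte markers, 2 fell with INT-787 (Cldn4 by 0.84 and Cftr by 0.86), while Krt19 (-0.36, adjusted p = 0.280) and Krt7 (-0.51, adjusted p = 0.122) did not pass the test, and OCA replicate 8 had the highest summed level, 234 CPM. The part of these other cells in the levels of the 9 genes was not tested.

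**Figure D4:**
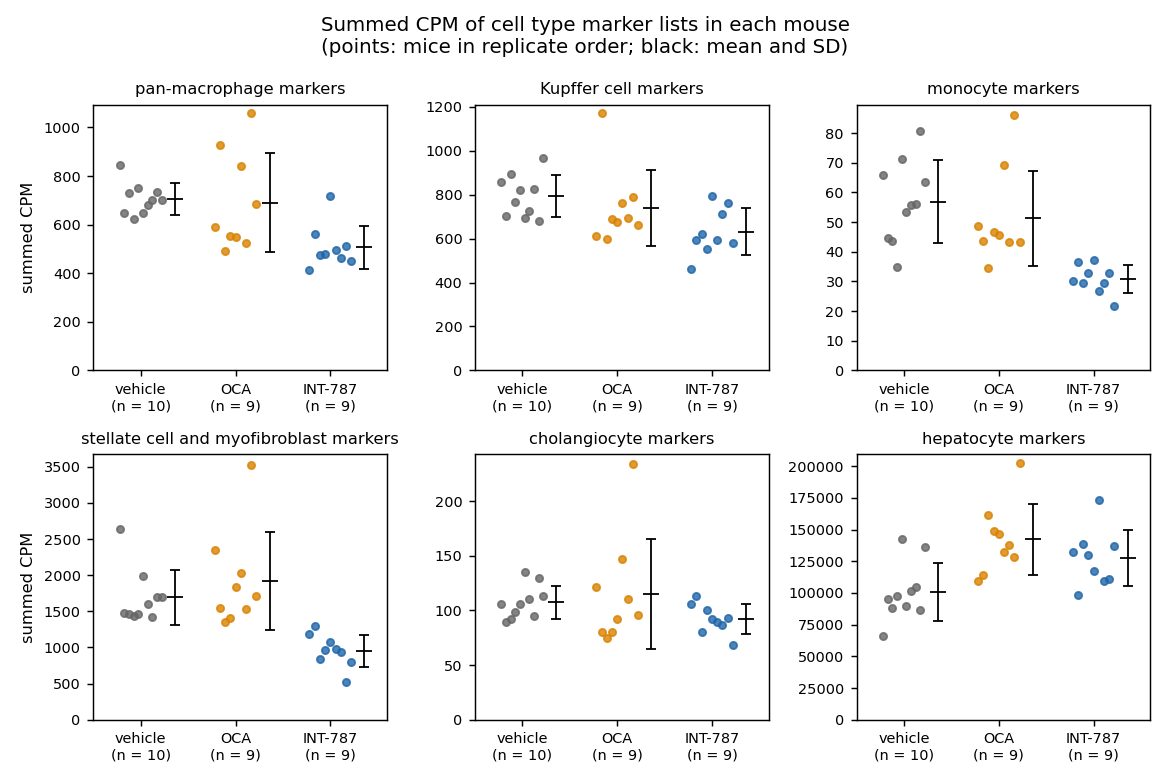
Summed CPM of 6 lists of cell type markers in each mouse, with 1 panel per list, a linear vertical axis from 0 and the same groups; black marks give the mean and the SD. The summed stellate cell and myofibroblast markers of all INT-787 mice, 523 to 1293 CPM, lay below those of all vehicle mice, and OCA replicate 8 was the highest OCA mouse for pan-macrophage, monocyte, stellate cell and cholangiocyte markers.

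Lists of rarer immune cells passed the test nowhere. None of 6 dendritic cell, 3 neutrophil and 6 lymphocyte markers that could be tested was called in any of the 3 comparisons. Their vehicle means were low, from 0.58 CPM (Cd209a) to 4.42 CPM (Zbtb46). Many estimates were imprecise, with an SE of 0.37 for S100a9 and 0.38 for Clec9a in INT-787 against vehicle. The absence of calls therefore does not show an absence of change. With INT-787 the log2 fold changes were -0.46 for S100a8 and -0.78 for S100a9 among neutrophil markers (adjusted p = 0.325 and 0.138) and -0.44 for Cd3e and -0.33 for Cd3d among lymphocyte markers (adjusted p = 0.394 and 0.558). Itgax is also a dendritic cell gene, and the part of dendritic cells in its level was not tested. With INT-787, the log2 fold changes of the 6 dendritic cell markers had a median of -0.43, with Clec9a at -0.65, H2-DMb2 at -0.47, Cd209a at -0.46, Flt3 at -0.41, Zbtb46 at 0.02 and Xcr1 at 0.07 (adjusted p from 0.248 to 0.944). Of 8 sinusoidal endothelial markers 2 fell with INT-787 (Cdh5 by 0.34 and Pecam1 by 0.33) and Stab2 gave -0.33 (adjusted p = 0.203). Of 8 hepatocyte markers 3 rose with each drug (Alb, Cps1 and Tat), and Apoa1 gave 0.23 with INT-787 (adjusted p = 0.295). Summed hepatocyte markers were 65682 to 142458 CPM with vehicle, 98029 to 173254 CPM with INT-787 and 109141 to 202431 CPM with OCA. FXR response genes moved in both drug groups: Nr0b2, Slc51b and Abcb11 rose and Cyp7a1 and Cyp8b1 fell, 5 of 5 with each drug.

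Other genes linked to lipid-associated macrophages were followed in a longer list. Of 26 tested, 12 fell and 1 rose with INT-787, 4 fell and 1 rose with OCA, and INT-787 gave lower levels than OCA for 9. The count of 9 became 5 when OCA replicate 8 or INT-787 replicate 6, 7 or 9 was left out. Without OCA replicates 6 and 8 together, 1 gene in place of 9 was called between the drugs and 3 in place of 5 with OCA against vehicle. The 4 that fell with OCA were Fabp4, Ctsz, Plin2 and Cd36, and Cadm1 rose, all but Fabp4 named after their values were seen. The genes with the lowest p were Msr1, a scavenger receptor (26.4 ± 3.92 CPM with vehicle and 15.99 CPM with INT-787, log2 fold change -0.72), Fabp4, another fatty acid chaperone (-1.34), Axl, a receptor for dying cells (-0.59), and Cd68 (-0.69). The gene that rose was Ctsl, a lysosomal protease (0.34, adjusted p = 0.0137), named after its value was seen. The log2 fold changes with OCA were -0.31 for Msr1 (adjusted p = 0.224), -1.19 for Fabp4 (adjusted p = 0.0039) and -0.06 for Axl (adjusted p = 0.869). Fabp4 therefore fell with both drugs, and the drugs differed by -0.15 in it (adjusted p = 0.847).

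Partners of TREM2 were followed next. Of 12 genes of its signalling and shedding, 6 fell with INT-787 and 0 were called with OCA. Of all tested genes, 9.48% were called lower with INT-787. With OCA 2.45% were called lower and 4.15% higher, so 0 of 12 is near those shares. Inpp5d, a phosphatase that dampens the signal, gave -0.59 ± 0.14, Plcg2, a phospholipase, gave -0.56 ± 0.13, and Syk gave -0.52 ± 0.12 (log2 fold change, SE). Adam10, a protease that sheds TREM2, gave -0.35 ± 0.09. The remaining 2 that fell were Tyrobp, the adaptor itself (-0.60, adjusted p = 0.0115), and Vav1 (-0.48, adjusted p = 0.00583), named after their values were seen. Of the 12, Inpp5d alone was called between the drugs, and narrowly (-0.46, lower with INT-787, adjusted p = 0.0468). This count of 1 became 0 with limma-voom, with DESeq2 size factors or without OCA replicate 8, 2 with DESeq2, and 0 to 2 when each mouse was left out.

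CD11c pairs with the beta chain Itgb2, which fell with INT-787 (-0.48 ± 0.11, adjusted p = 0.00174), as did its activator Fermt3 (-0.60 ± 0.13). The signalling chain Fcer1g gave -0.83 ± 0.21, and with Syk these were 4 called of 10 partners of CD11c and Dectin-1, the receptor that Clec7a encodes. None of the 10 was called with OCA, again near the shares of all genes. Among 7 receptor chains for osteopontin 3 fell with INT-787: Cd44 (30.2 ± 5.75 CPM with vehicle and 18.2 CPM with INT-787, -0.75 ± 0.11), Itga9 (-0.44 ± 0.13) and Itga4 (-0.57 ± 0.17). Cd44 was also lower with INT-787 than with OCA (-0.63, adjusted p = 0.000781).

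Relatives of the 9 genes are read against the 9.48% of all tested genes called lower and the 10.2% called higher with INT-787. Of 12 other tetraspanins, 2 fell (Cd53 by 0.71, a leukocyte gene, and Cd81 by 0.33) and 1 rose (Cd82, 0.41) with INT-787, which is near those shares. Of 16 other V-ATPase subunits and accessory proteins 3 fell (Atp6v0a2 by 0.27, Atp6v0e by 0.40 and Atp6ap2 by 0.27), and their median log2 fold change was -0.08. Among 4 other fatty acid binding proteins that could be tested only Fabp4 was called, whereas Fabp1 gave -0.20 (adjusted p = 0.511) and Fabp2 0.38 (adjusted p = 0.0552). Of 4 other galectin genes that could be tested, Lgals1 fell with INT-787 (-0.91) and with OCA (-0.90) and Lgals9 rose with INT-787 (0.40). Lgals3bp, which encodes a glycoprotein that binds galectin-3 and is no galectin, fell with INT-787 (-0.35). Galectin-1 and galectin-3 messages therefore differed in their values: Lgals1 differed by -0.01 between the drugs (adjusted p = 0.991) and Lgals3 by -1.13.

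The genes also varied together from mouse to mouse within groups. Log2 CPM was taken as the deviation from the group mean, so that differences between groups did not enter, and Trem2 was set against each of the other 8 genes in 28 mice. All 8 relations were positive and had an adjusted p of at most 0.05 (two-sided permutation within groups, 100000 resamples, Benjamini-Hochberg over 8). The share of all genes that would pass this test with Trem2 was not computed, so the count of 8 has no background beside it. The strongest was with Gpnmb (Pearson r = 0.68, permutation p = 2e-05, adjusted p = 0.00016; Spearman rho = 0.71, permutation p = 6e-05, adjusted p = 0.00048). Next came Atp6v0d2 (r = 0.66, permutation p = 0.00013, adjusted p = 0.00052; rho = 0.65, permutation p = 0.00045, adjusted p = 0.0018) and Itgax (r = 0.64, permutation p = 0.00047, adjusted p = 0.00125; rho = 0.60, permutation p = 0.0014, adjusted p = 0.00373). Atp6v0d2 thus tracked Trem2 across mice although no difference between its group means passed the test. Spp1 gave r = 0.62 (permutation p = 0.00357, adjusted p = 0.00476) and rho = 0.51 (permutation p = 0.0118, adjusted p = 0.0168), and Lgals3 gave r = 0.61 (permutation p = 0.00084, adjusted p = 0.00168) and rho = 0.54 (permutation p = 0.00465, adjusted p = 0.0093). Lower values were found for Cd63 (r = 0.58, permutation p = 0.00285, adjusted p = 0.00456; rho = 0.49, permutation p = 0.0126, adjusted p = 0.0168), Cd9 (r = 0.54, permutation p = 0.0108, adjusted p = 0.0124; rho = 0.40, permutation p = 0.0498, adjusted p = 0.0498) and Fabp5 (r = 0.50, permutation p = 0.0154, adjusted p = 0.0154; rho = 0.42, permutation p = 0.0350, adjusted p = 0.0400).

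**Figure D5:**
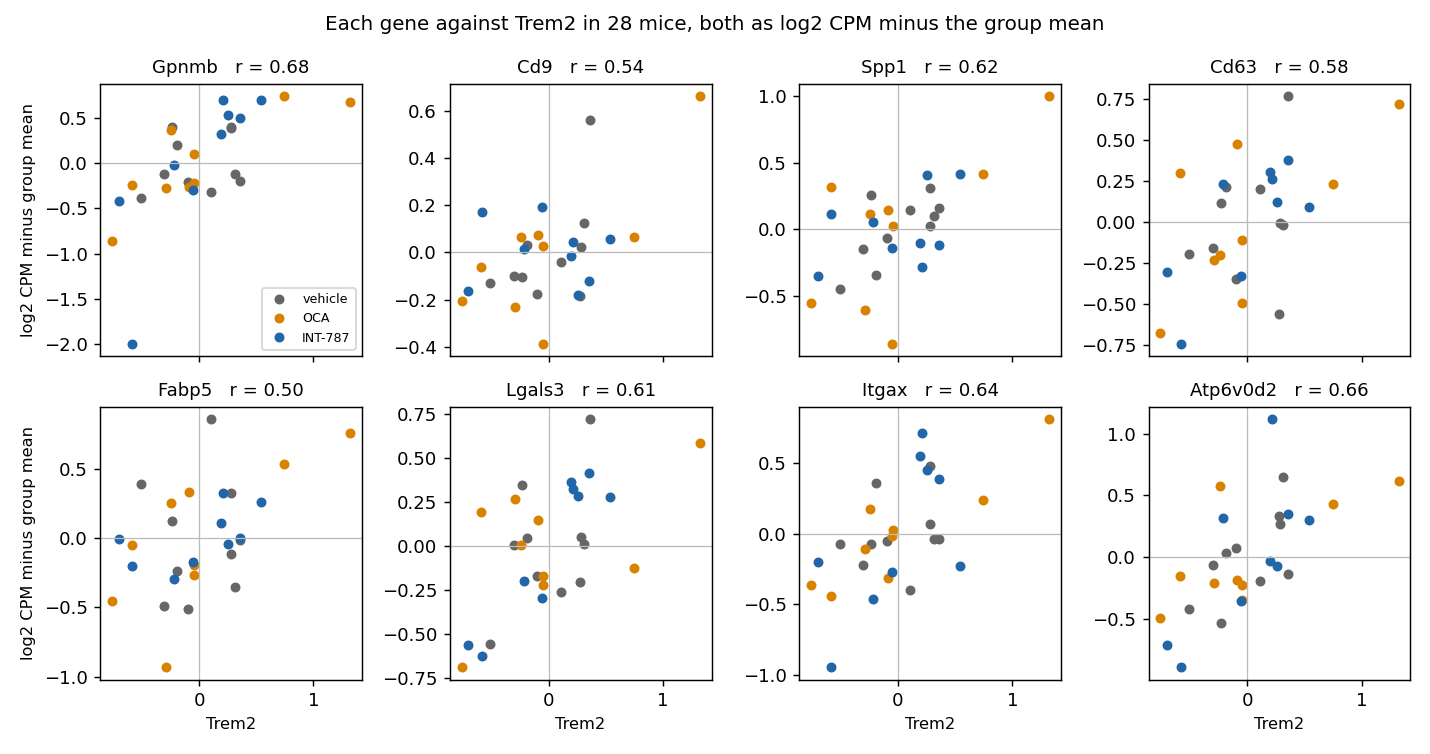
Deviation from the group mean in log2 CPM for Trem2 (horizontal) and for each of the other 8 genes (vertical) in 28 mice, coloured by group, with Pearson r above each panel. The orange point at the right of every panel is OCA replicate 8, and r runs from 0.50 for Fabp5 to 0.68 for Gpnmb.

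The 2 mice farthest from the median of Trem2 were OCA replicates 8 and 6. Without them r was 0.65 for Gpnmb, 0.65 for Lgals3, 0.61 for Atp6v0d2, 0.52 for Itgax and 0.45 for Cd63, and these 5 relations held (adjusted permutation p up to 0.0444). The relations of Trem2 with Spp1 (r = 0.33), Fabp5 (r = 0.22) and Cd9 (r = 0.22) rested on these 2 mice (adjusted permutation p = 0.125, 0.279 and 0.286). Within single groups, Trem2 and Gpnmb gave r = 0.23 in vehicle mice, 0.84 in OCA mice and 0.82 in INT-787 mice, whereas Trem2 and Atp6v0d2 gave 0.66, 0.72 and 0.70. After adjustment over 8, no relation passed within the 10 vehicle mice, 2 passed within the 9 OCA mice and 2 within the 9 INT-787 mice. Over all 36 pairs of the 9 genes r ranged from 0.06 (Gpnmb and Cd9) to 0.79 (Cd63 and Lgals3), with a median of 0.50.

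Among 11928 other genes with a mean of at least 1 CPM, the 10 with the highest Pearson r to Trem2 over the 28 mice, by deviations from group means, were Hacd4 (0.85), C3ar1 (0.84), Fblim1 (0.84), Lpcat2 (0.83), Oxct1 (0.83), Cd68 (0.80), C5ar1 (0.80), Anxa1 (0.80), P2ry6 (0.80) and Cxcl16 (0.80). C3ar1 and C5ar1 encode receptors for complement fragments, Lpcat2 an enzyme that remodels phospholipids and Cxcl16 a chemokine that is also a scavenger receptor. All of these r values exceeded that of Gpnmb, but they are the highest of 11928 genes, whereas Gpnmb is the closest of only 8. Ranked instead by mean r over the 9 genes, the first 10 were Fblim1 (0.63), Anxa1 (0.63), Cbr3 (0.59), Hacd4 (0.59), Oxct1 (0.58), C3ar1 (0.57), Cercam (0.57), Gpx3 (0.57), Cxcl16 (0.56) and Anxa4 (0.56). Of the 10 genes most like Trem2, 9 were called lower with INT-787 than with vehicle, where 9.48% of all tested genes were. The exception was Oxct1 (-0.36, adjusted p = 0.1005). These r values are descriptions, and each is computed over mice that include OCA replicates 6 and 8.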

How the data were processed

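Poly-A RNA from 28 mouse livers was sequenced from stranded libraries; the authors aligned reads to GRCm38 (Ensembl release 89) with STAR 2.5.2a and deposited raw counts of reads per Ensembl gene, 1 column per mouse and without normalization. The counting program and its strand setting are not given in the sources used here. Groups came from the sample titles, and no column was left out. Symbols, coordinates and transcript lengths came from GENCODE M21, whose build is also GRCm38.

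Genes passing edgeR's filterByExpr (12580 of 21935) were scaled by TMM and fitted in 1 quasi-likelihood model with 3 groups (edgeR 4.0.16, R 4.3.3), with Benjamini-Hochberg adjustment over all genes tested. SE is the log2 fold change divided by the root of the test's F. Both drugs were compared with the same vehicle mice. Log2 CPM used a prior count of 2. Each mouse is a separate animal. Alternatives were DESeq2 1.42.0, limma-voom (limma 3.58.1), other scalings and filters, a replicate block, and leaving out mice. The edgeR fit was tested on simulated data. The 10 genes and all lists were chosen with earlier results of these data known. Named list genes are up to 4 with the lowest p in INT-787 against vehicle and, for cell types, the first 2 of the list. Total counts of 1009593 to 22421506 per mouse set the precision.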

Additional observations from a re-analysis of the deposited data

Results flagged for a closer look

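Values that stood far from the rest of their group were sought in 45 sets of mice (9 genes, total counts and 5 summed marker lists in 3 groups), and 11 were found; chance flags about 1 in 20 groups. Vehicle replicate 10 had 146 CPM of Cd9, against 108 CPM in the next vehicle mouse, and 273 CPM of Cd63, against 186 CPM. OCA replicate 8 had 182 CPM of Cd9, against 121 CPM in the next OCA mouse, and 44.2 CPM of Itgax, against 29.7 CPM. The same mouse had 234 CPM of summed cholangiocyte markers (next 147 CPM) and 3521 CPM of summed stellate cell and myofibroblast markers (next 2345 CPM). INT-787 replicate 3 had 20.6 CPM of Atp6v0d2, against 12.04 CPM in the next INT-787 mouse. Vehicle replicate 6 had 1009593 total counts, against 9313260 in the next lowest vehicle mouse. Vehicle replicate 1 had 2646 CPM of summed stellate cell and myofibroblast markers (next 1994 CPM), OCA replicate 2 had 1173 CPM of summed Kupffer cell markers (next 788 CPM), and INT-787 replicate 5 had 717 CPM of summed pan-macrophage markers (next 560 CPM).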

How the results depend on the processing

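The number of the 9 genes called lower with INT-787 than with vehicle was 7 with edgeR, DESeq2 and limma-voom, 5 without vehicle replicates 5 and 6 together (Trem2 and Gpnmb were lost), 4 at an adjusted p of at most 0.01 and 5 to 7 when each mouse was left out. With OCA against vehicle it was 0 under every alternative run and 0 to 0 when each mouse was left out. Between the drugs it was 7 with edgeR, 9 with DESeq2 and with upper-quartile scaling, 8 with limma-voom, 3 at an adjusted p of at most 0.01 and 5 to 9 when each mouse was left out. Without OCA replicates 6 and 8 together, chosen after seeing the data, it was 3, and 2 estimates of OCA against vehicle changed sign, to -0.16 for Trem2 and -0.044 for Itgax; no estimate of INT-787 against either group did under any alternative run. Relations of Trem2 passing the test numbered 8, and 6 to 8 when each mouse was left out, 5 without the 2 mice farthest from its median, 0 within vehicle, 2 within OCA and 2 within INT-787; smaller groups have fewer mice. With the replicate number as a block, INT-787 lowered 6 genes compared with vehicle (Trem2 was lost), 0 were called with OCA and 7 differed between the drugs. Whether the numbers pair the mice was not settled: same-numbered mice gave r from -0.244 to 0.429 over 27 pairs, with 11 over 0.1. Values for replicates 1 to 3 were all positive (0.099 to 0.429), and those for later numbers had both signs. Mice with different numbers were not compared. A minimum of 10 counts in every mouse left out Atp6v0d2, which gave no value there, and in vehicle replicate 6 it had 8 counts. Genes near 10 CPM are limited in that mouse by depth.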
